A study of Mus musculus with 7 samples.

Results

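The genes of the major histocompatibility complex (MHC) and of antigen presentation were taken as every row whose symbol begins with H2-, together with B2m, Tap1, Tap2, Tapbp, Psmb8, Psmb9, Psmb10, Nlrc5, Ciita and Cd74. This gave 52 of the 32531 gene rows. They were 31 class I rows, 10 class II rows, 10 rows for processing, invariant chain and transactivators, and H2-Ke6, which bears an H2 name for its place in the locus. At least 1 count was present for 43 rows, and 32 passed the filter on low counts and were tested. Of the 32 rows tested, 18 were higher in immunopurified RNA, 1 was lower and 13 were not called, beside 20.5% higher and 18.9% lower of all tested genes. The other 20 rows were not tested. The classical class I genes H2-K1 and H2-D1, their light chain B2m, the class II genes H2-Aa, H2-Ab1 and H2-Eb1, Cd74 and the immunoproteasome subunits Psmb8 and Psmb9 were among those that rose, while Psmb10, another immunoproteasome subunit, and the class II transactivator Ciita did not pass the test.

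MHC class I molecules are a heavy chain bound to beta-2-microglobulin, the B2m product, and present peptides cut by the proteasome in the cytosol to CD8 T cells. The transporter of Tap1 and Tap2 carries those peptides into the endoplasmic reticulum, where tapasin, the Tapbp product, helps load them. Class II molecules pair an alpha and a beta chain, are guided to endosomes by the invariant chain Cd74, and present peptides of endosomal origin to CD4 T cells. Class I is made by most nucleated cells and is low in most neurons, and class II is largely made by professional antigen-presenting cells, among them macrophages of the brain's borders and vessels.

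The series holds RNA sequencing of 3 immunopurified (IP) libraries, replicates 1, 2 and 4, and 4 unbound libraries, replicates 1 to 4, from dissected midbrain of adult mice. All mice were untreated controls of the line Stard8-TRAP ES2342, in which EGFP fused to the ribosomal protein Rpl10a is driven by regulatory sequence of Stard8. IP RNA came off beads that carried anti-EGFP antibodies and held tagged polysomes, and unbound RNA is what those beads left behind, so both groups share genotype, line and tissue. Strain, sex, pooling of animals and whether libraries come from separate animals are not given in the labels, and p-values measure the spread between these libraries, which may be technical. The comparison sets RNA held by tagged ribosomes against the rest of the homogenate. In bulk RNA, fewer cells of a type and less RNA per cell cannot be told apart.

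Libraries held 52052340 to 70861941 counts in genes in IP and 53715780 to 76114634 in unbound. Levels are in CPM, read counts divided by the scaled library size in megacounts, on which 3 counts, the limit that a count of 0 allows, are 0.0376 to 0.059 CPM. The labels describe the libraries as profiles of neurons. Of the marker genes listed for each cell type, all 9 pan-neuronal genes and all 6 oligodendrocyte genes were lower in IP, and of 7 dopamine neuron genes 1 was lower and 6 were not called. All 12 endothelial genes, 10 of 10 pericyte and smooth muscle genes, 8 of 8 perivascular macrophage genes and 8 of 8 microglia genes were higher, as were 4 of 7 astrocyte genes and 4 of 6 fibroblast and meningeal genes. Summed levels in IP 1, 2 and 4 were 2545, 2422 and 1967 CPM for endothelial markers, 662, 723 and 697 CPM for perivascular macrophage markers and 460, 463 and 470 CPM for microglia markers. In unbound they were 16.2 to 22.7 CPM, 4.26 to 12.04 CPM and 52.8 to 81.8 CPM. Because markers of several cell types moved with the members, no member was assigned to a cell type, and the part of each cell type in the results was not tested. Of all 17654 tested genes, 39.4% passed the threshold (adjusted p of 0.05 by edgeR's quasi-likelihood test with Benjamini-Hochberg adjustment over all genes tested), 20.5% were higher in IP and 18.9% were lower. The median log2 fold change over all tested genes was -0.10, and for 25.1% of them every IP library lay above every unbound library. For 22.7% every IP library lay below every unbound library.

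In promoters of some classical MHC genes the letters TGACG lie upstream of a CCAAT box, the Y box bound by NF-Y. TGACG is the core of a cAMP response element in the X2 box, which is bound by CREB and ATF factors. An X2 box with other letters was not searched for. The sequences of B2m, H2-K1, H2-Aa and H2-Eb1 are shown because they are abundant class I and class II members with and without TGACG. Each is the 250 bases before the RefSeq start in GRCm38.p6, in the direction of transcription, with matches to the CCAAT box, to the letters TGACG and to an interferon-stimulated response element, spelled GAAANNGAAA, on either strand in capitals.
B2m, chr2:122147437-122147686, plus strand: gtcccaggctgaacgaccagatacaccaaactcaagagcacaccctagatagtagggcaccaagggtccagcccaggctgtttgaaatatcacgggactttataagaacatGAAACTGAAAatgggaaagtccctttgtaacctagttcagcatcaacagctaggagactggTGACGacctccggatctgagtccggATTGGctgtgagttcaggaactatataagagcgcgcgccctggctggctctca
H2-K1, chr17:34000348-34000597, minus strand: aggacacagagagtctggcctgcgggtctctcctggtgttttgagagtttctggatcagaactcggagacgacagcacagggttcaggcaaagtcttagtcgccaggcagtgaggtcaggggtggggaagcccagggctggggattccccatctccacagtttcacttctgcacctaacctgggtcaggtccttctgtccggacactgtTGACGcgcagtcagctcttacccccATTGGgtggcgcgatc
H2-Aa, chr17:34287824-34288073, minus strand: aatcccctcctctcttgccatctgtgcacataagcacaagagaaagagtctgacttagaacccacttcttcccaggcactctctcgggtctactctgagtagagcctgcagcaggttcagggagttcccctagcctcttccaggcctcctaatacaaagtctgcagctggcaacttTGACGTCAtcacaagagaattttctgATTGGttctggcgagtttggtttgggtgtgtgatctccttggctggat
H2-Eb1, chr17:34305617-34305866, plus strand: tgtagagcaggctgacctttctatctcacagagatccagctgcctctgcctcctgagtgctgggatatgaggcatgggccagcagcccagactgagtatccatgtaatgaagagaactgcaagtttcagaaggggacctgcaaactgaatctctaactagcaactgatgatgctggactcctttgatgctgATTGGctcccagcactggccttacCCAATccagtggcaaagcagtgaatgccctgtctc
In B2m and H2-K1 the first letter of TGACG lies 25 bases before the first letter of ATTGG, the CCAAT box read on the other strand. In H2-Aa this distance is 26 bases, and its TGACGTCA holds a match on each strand. H2-K1 has 2 RefSeq starts, and the window of the upstream one is shown. H2-Eb1 holds CCAAT boxes and no TGACG in this window, and whether it holds an X2 box with other letters was not tested.

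The promoter table had 40 windows of 37 member genes. A CCAAT box was present in 34 of the 40 windows, beside 33.8% of all 32851 windows of the same length. TGACG was present in 16 of 40 beside 17.8%. GAAANNGAAA was present in 3 of 40 beside 2.98%, and the GAS element TTCNNNGAA in 4 of 40 beside 7.02%. Only these exact spellings were searched, so a window without a match may hold an element with other letters. By class, a CCAAT box was found in 21 of 24 class I windows and 8 of 9 class II windows, and TGACG in 12 of 24 class I windows and 1 of 9 class II windows. TGACG followed by ATTGG at 25 to 26 bases, a spacing chosen after seeing these sequences, was found in 6 windows of the 5 genes B2m, H2-K1, H2-D1, H2-M3 and H2-Aa, beside 0.0822% of all windows. Member promoters are related by descent and partly overlap, as do those of Psmb9 and Tap1 over 225 bases, and a match is a description of letters, not of binding.

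Classical class I genes were higher in every IP library than in any unbound library. H2-K1 (chr17:33996017-34000347, GRCm38), a classical heavy chain, had 147, 132 and 145 CPM in IP 1, 2 and 4, against 4.34, 11.1, 8.84 and 7.02 CPM in unbound 1 to 4. It rose by 4.18 ± 0.32 on the log2 scale (standard error, adjusted p = 4.98e-06). H2-D1 (chr17:35262730-35267499), the other classical heavy chain, had 135, 104 and 121 CPM in IP, against 10.04, 24.5, 21.5 and 17.1 CPM in unbound. The groups did not overlap for either gene, and H2-D1 rose by 2.71 ± 0.30 (adjusted p = 6.44e-05). The count ratio of H2-K1 to H2-D1 was 1.09, 1.27 and 1.19 in IP and 0.432, 0.452, 0.411 and 0.410 in unbound. The ratios did not overlap between groups. Per kilobase of exon the mean ratio was 1.04 ± 0.0793 in IP (SD, n = 3) and 0.374 ± 0.0173 in unbound (SD, n = 4), so that per length the 2 heavy chains were near each other in IP and H2-K1 was the lower in unbound. Of the 50-base words of these transcripts, 9.63% for H2-K1 and 12.8% for H2-D1 also occur in another gene, and reads aligned to more than 1 place are absent from the counts.

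B2m, the light chain, was the most abundant member per length. It had 751, 864 and 933 CPM in IP, against 30.0, 33.2, 42.7 and 46.2 CPM in unbound. Every IP library was far above every unbound library, and B2m rose by 4.48 ± 0.27 on the log2 scale (adjusted p = 1.4e-06). Counts of B2m per count of H2-K1 and H2-D1 together were 2.67, 3.66 and 3.51 in IP, against 2.09, 0.933, 1.41 and 1.92 in unbound. The lowest IP ratio lay above the highest unbound ratio. B2m averaged 987 CPM per kilobase in IP and 44.2 in unbound, while H2-K1 averaged 48.1 in IP and 2.66 in unbound, and H2-D1 46.5 in IP and 7.09 in unbound.

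**Figure D1:**
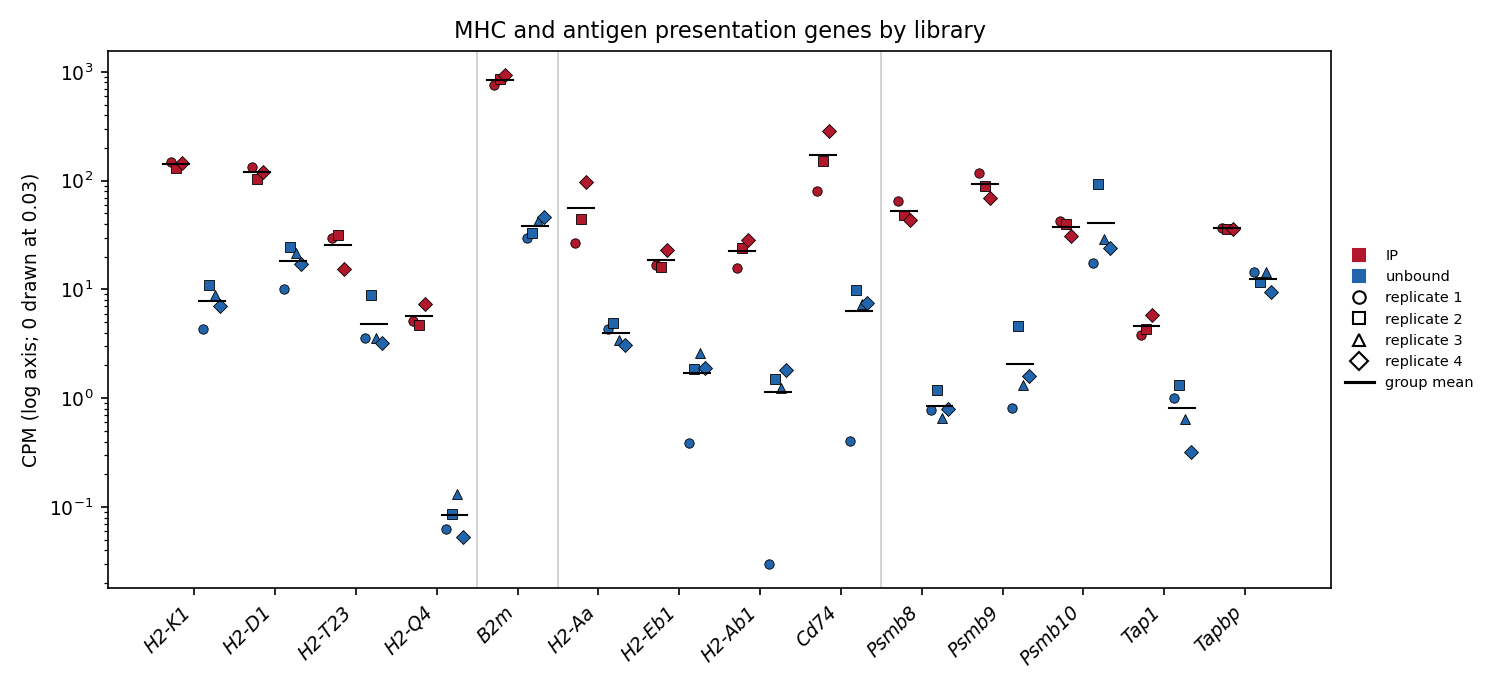
Levels of 14 members in each library as CPM on a log axis, IP in red and unbound in blue, with a symbol for each replicate and a line at the group mean; a count of 0 is drawn at the foot of the axis. IP points lie above unbound points for every gene shown except Psmb10, whose unbound 2 library had 93.8 CPM.

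Of the 13 class I rows tested, 6 rose, 1 fell and 6 were not called. Of all tested genes 20.5% were higher and 18.9% lower. Among the called class I rows, 4 that rose and the 1 that fell were nonclassical. H2-T23, whose product Qa-1 presents leader peptides of other class I chains, had 29.9, 31.9 and 15.3 CPM in IP, against 3.60, 8.88, 3.59 and 3.23 CPM in unbound. Its libraries did not overlap, and its log2 fold change was 2.41 ± 0.42 (adjusted p = 0.0013). H2-Q4, a Qa region heavy chain, had 5.16, 4.72 and 7.39 CPM in IP, against 0.0627, 0.0859, 0.133 and 0.0529 CPM in unbound. At 3 to 7 counts in each unbound library it was close to the limit of detection there, and its log2 fold change of 6.09 ± 0.57 (adjusted p = 1.9e-05) was the highest of the tested members. H2-Q7, which encodes Qa-2, had 3.44, 1.64 and 2.52 CPM in IP, against 0, 0.172, 0.247 and 0.194 CPM in unbound, and its log2 fold change was 4.05 ± 0.99 (adjusted p = 0.00855). Both Q genes share much sequence with neighbours, 21.8% of 50-base words for H2-Q4 and 26.4% for H2-Q7, so their division of reads is uncertain. H2-M3, which presents formylated peptides, had 9.498, 6.94 and 4.89 CPM in IP, against 3.32, 2.61, 2.03 and 2.31 CPM in unbound. Its groups did not overlap, its log2 fold change was 1.47 ± 0.38 (adjusted p = 0.0114), and it lost its call without IP 1 (adjusted p = 0.0804). H2-M5 fell by 4.33 ± 1.52 on the log2 scale (adjusted p = 0.0426) with 1, 0 and 1 counts in IP, against 18, 34, 11 and 1 in unbound. These groups overlap, and the call was lost without IP 1 (adjusted p = 0.129), IP 2 (0.149) or IP 4 (0.0853), and in limma voom (0.108). It was not tested without unbound 1, 2 or 3, where it missed the filter.

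The remaining class I rows showed no call. H2-T24 had 6.60, 8.47 and 14.3 CPM in IP, against 21.0, 3.04, 13.5 and 12.6 CPM in unbound, which overlap (log2 fold change -0.36 ± 0.53, adjusted p = 0.625). H2-Q2 and H2-Bl lay lower in every IP library than in any unbound library, as did 22.7% of all tested genes. Their log2 fold changes were -2.08 ± 0.82 (adjusted p = 0.0666) and -1.52 ± 0.72 (adjusted p = 0.12). H2-Q2 passed the threshold without unbound 1 (adjusted p = 0.029). Values for H2-T10, H2-Q1 and H2-K2 were 1.09 ± 1.10, -1.16 ± 0.89 and -1.39 ± 0.73 (adjusted p = 0.457, 0.323 and 0.153), and all 3 overlapped between groups. In 9 class I rows there were 0 counts in every library, namely H2-L, H2-M10.1, H2-M10.3, H2-M10.4, H2-M10.5, H2-M10.6, H2-Q6, H2-T3 and H2-T9. A further 9 had counts too low to test: H2-M1, H2-M2, H2-M9 and H2-M11 had at most 2 counts in any library. H2-Q5 had 72, 11 and 7 counts in IP, against 0, 2, 1 and 3 in unbound, and H2-Q8 had 13 counts in IP 4 and 0 in every other library. H2-M10.2 had 26 counts in unbound 1 and at most 4 elsewhere, H2-Q10 had 18 in IP 4 and 14 in unbound 2 and at most 2 elsewhere, and H2-T22 had at most 6. Of the 28 class I transcripts in GENCODE M21, a median of 11.02% of 50-base words occur in another gene, so that a count of 0 may also follow from reads with several places to align. The mouse strain is not given, and an effect of its H2 haplotype on these counts was not tested.

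Of the 10 class II rows 8 were tested, of which 5 were higher in IP and 3 were not called. These counts stand beside 20.5% higher and 18.9% lower of all tested genes. H2-Aa (chr17:34282744-34287823), the alpha chain of I-A, had 27.0, 44.8 and 96.4 CPM in IP, against 4.37, 4.90, 3.45 and 3.11 CPM in unbound. IP 4 was the highest by a wide margin, and the log2 fold change was 3.82 ± 0.41 (adjusted p = 5.25e-05), or 3.19 without IP 4. H2-Ab1 (chr17:34257689-34269419), its beta chain partner, had 15.9, 23.9 and 28.2 CPM in IP, against 0, 1.51, 1.23 and 1.80 CPM in unbound. The count of 0 in unbound 1 allows up to 0.0376 CPM, and H2-Ab1 rose by 4.33 ± 0.92 (adjusted p = 0.0041). H2-Eb1 (chr17:34305867-34316674), the beta chain of I-E, had 16.9, 16.1 and 23.3 CPM in IP, against 0.388, 1.87, 2.62 and 1.91 CPM in unbound, and rose by 3.47 ± 0.53 (adjusted p = 0.000532). None of the 3 genes overlapped between groups. For 25.1% of all tested genes, too, every IP library lay above every unbound library. H2-Ea-ps, the row of the I-E alpha chain, had 1 count in all libraries together, in unbound 2, and H2-Eb2 had 1, 0 and 5 counts in IP, against 0, 0, 0 and 3 in unbound; neither was tested.

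H2-DM exchanges peptides on class II molecules in endosomes, and H2-O restrains it. H2-DMa had 12.2, 18.5 and 20.1 CPM in IP, against 5.48, 10.3, 4.02 and 4.80 CPM in unbound, and rose by 1.46 ± 0.37 on the log2 scale (adjusted p = 0.00995). H2-DMb1 had 2.88, 3.14 and 2.97 CPM in IP, against 0.213, 0.584, 0.285 and 0.335 CPM in unbound, with 3.08 ± 0.59 (adjusted p = 0.00218). Neither gene overlapped between groups. H2-DMb2, H2-Ob and H2-Oa did not pass the threshold, with log2 fold changes of 1.98 ± 1.03, 2.88 ± 1.06 and 1.47 ± 1.40 (adjusted p = 0.149, 0.0517 and 0.429). H2-Ob passed without unbound 2 (adjusted p = 0.0167), with RLE scaling (0.0499), library size only (0.0365), DESeq2 (0.0175), limma voom (0.0234) and the index as covariate (0.0435). H2-DMb1 and H2-DMb2 share 22.7% and 24.8% of their 50-base words, mainly with each other, and are uncertain in how reads divide between them.

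Cd74 (chr18:60803848-60812652), the invariant chain, had 79.6, 153 and 288 CPM in IP, against 0.401, 9.96, 7.34 and 7.57 CPM in unbound. The groups did not overlap, IP 4 was the highest, and unbound 1 stood well below the other unbound libraries. Cd74 rose by 4.78 ± 0.81 (adjusted p = 0.00111). Its counts per count of H2-Aa, H2-Ab1 and H2-Eb1 together were 1.33, 1.80 and 1.95 in IP, against 0.0842, 1.20, 1.01 and 1.11 in unbound. Per length, Cd74 averaged 103 CPM per kilobase in IP and came next after B2m among the members, above H2-Aa at 14.8, H2-Eb1 at 9.65 and H2-Ab1 at 8.83.

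Set side by side, class I rows had 6 higher, 1 lower, 6 not called and 18 not tested. Class II rows had 5 higher, 3 not called and 2 not tested, with a positive fold change in each of the 8 tested. Of all tested genes 20.5% were higher and 18.9% lower. The median log2 fold change of the tested rows was 1.09 in class I, 2.98 in class II and 3.004 in the processing group, beside -0.10 over all tested genes. The class I median includes rows that GENCODE marks as pseudogenes, H2-K2 (-1.39) and the polymorphic H2-Bl (-1.52) and H2-T10 (1.09). The classical H2-K1 and H2-D1 had 4.18 and 2.71, and H2-Aa, H2-Ab1 and H2-Eb1 had 3.82, 4.33 and 3.47. Summed class I levels were 342, 293 and 313 CPM in IP, against 52.3, 59.1, 55.9 and 47.7 CPM in unbound. Summed class II levels were 77.2, 108 and 174 CPM in IP, against 11.7, 19.8, 11.8 and 12.3 CPM in unbound. Both sums were higher in every IP library than in any unbound library. The ratio of class II to class I counts was 0.225, 0.369 and 0.557 in IP 1, 2 and 4, against 0.224, 0.335, 0.211 and 0.258 in unbound 1 to 4. These ratios overlap between groups: IP 1 was as low as unbound 1, and the mean was 0.384 ± 0.166 in IP (SD, n = 3) and 0.257 ± 0.0557 in unbound (SD, n = 4). With H2-Aa, H2-Ab1 and H2-Eb1 over H2-K1 and H2-D1 alone the ratio was 0.212, 0.359 and 0.556 in IP 1, 2 and 4. In unbound 1 to 4 it was 0.331, 0.233, 0.241 and 0.282, and IP 1 lay below every unbound library. The means were 0.376 in IP and 0.272 in unbound. Of class I counts, H2-K1 and H2-D1 gave 21116 of 25660, 13539 of 16798 and 13536 of 15924 in IP 1, 2 and 4. In unbound 1 to 4 they gave 1147 of 4173, 2070 of 3439, 1600 of 2945 and 1368 of 2700. No test was made of the difference between the classes, since the members were chosen with results known.

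**Figure D2:**
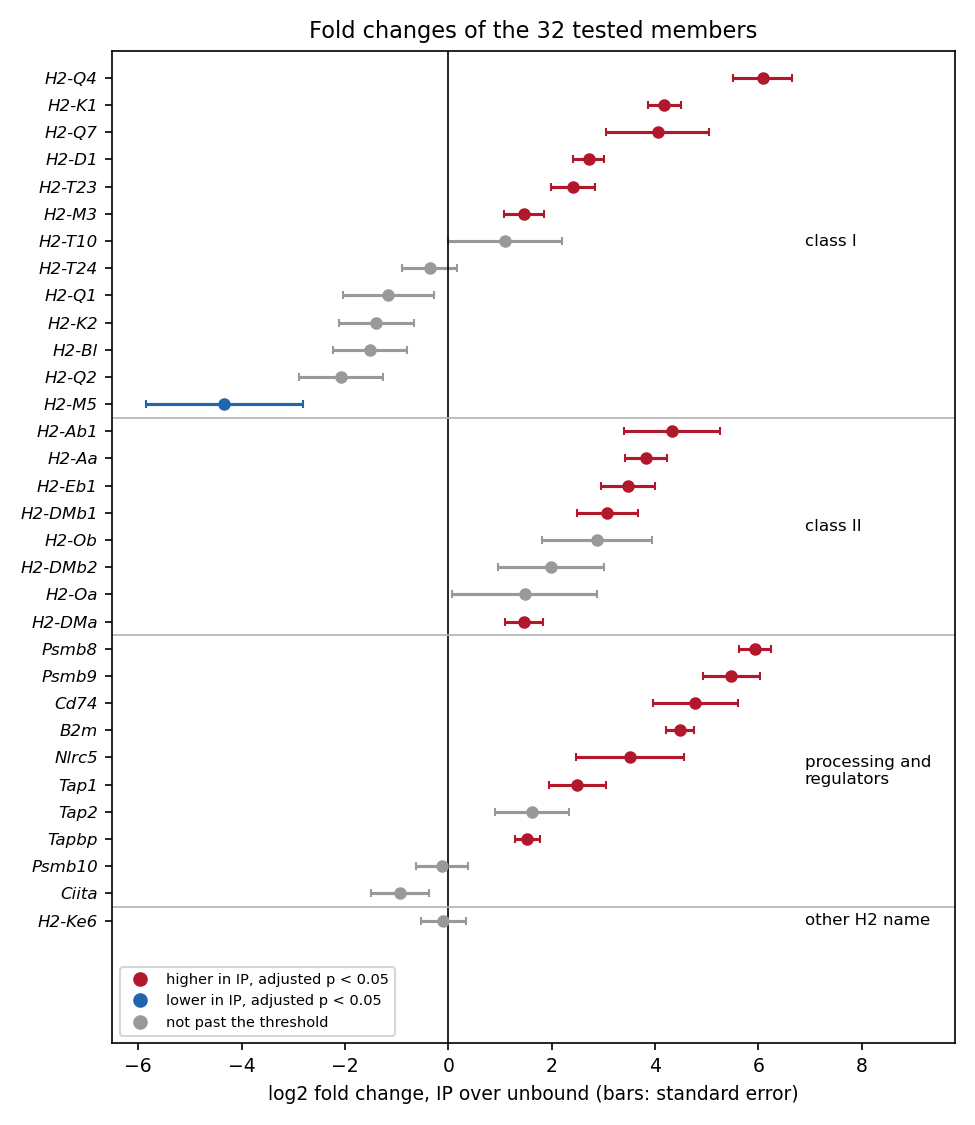
Log2 fold changes, IP over unbound, of the 32 tested members with standard errors, grouped into class I, class II, processing and regulators, and H2-Ke6; red is higher in IP, blue lower and grey not past the adjusted p threshold of 0.05. Class I values run from 6.09 for H2-Q4 to -4.33 for H2-M5, while class II values run from 4.33 for H2-Ab1 to 1.46 for H2-DMa.

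**Figure D3:**
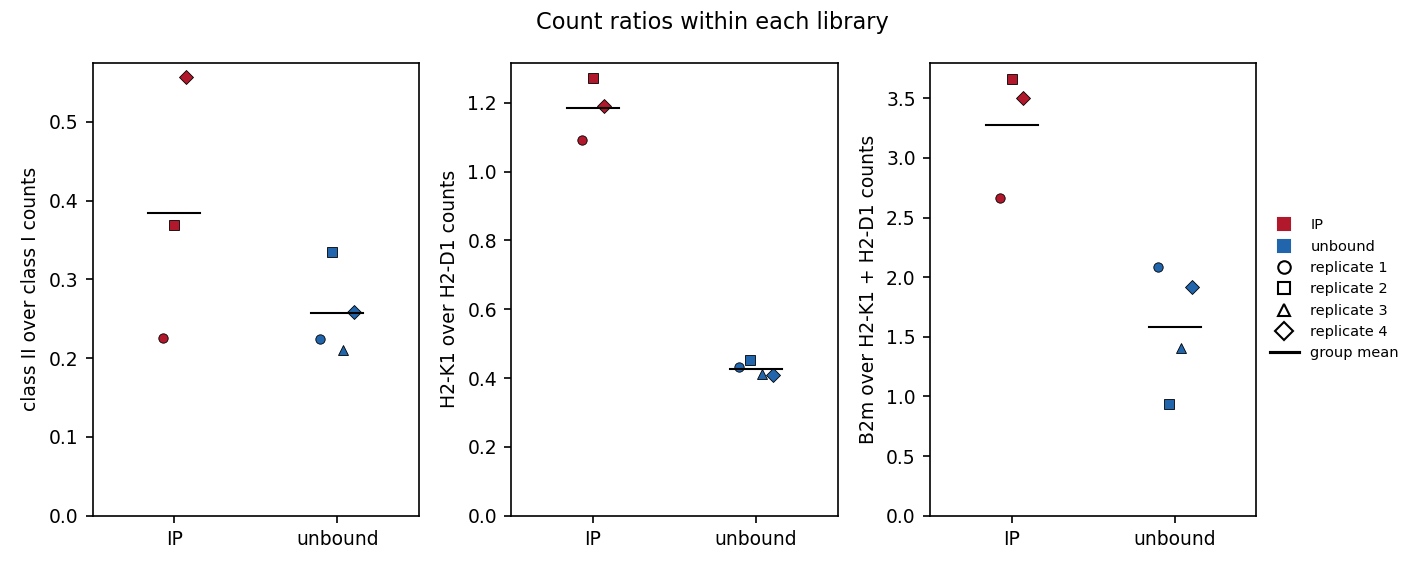
Ratios of counts within each library, IP left and unbound right, with a symbol for each replicate and a line at the group mean, on linear axes from 0. The class II to class I ratio overlaps between groups, and the ratios of H2-K1 to H2-D1 and of B2m to both heavy chains do not.

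Of the 3 immunoproteasome subunits, 2 rose and 1 did not pass the test. These subunits replace the catalytic subunits of the constitutive proteasome in immune and interferon-exposed cells. Psmb8 (chr17:34197721-34201454), which takes the place of Psmb5, had 65.3, 47.9 and 43.9 CPM in IP, against 0.777, 1.19, 0.664 and 0.794 CPM in unbound. It rose by 5.93 ± 0.31 (adjusted p = 1.02e-06). Psmb9 (chr17:34181987-34187764), which replaces Psmb6, had 119, 89.7 and 69.2 CPM in IP, against 0.815, 4.59, 1.33 and 1.59 CPM in unbound. It rose by 5.48 ± 0.55 (adjusted p = 3.36e-05), or 6.22 without unbound 2, and neither gene overlapped between groups. Psmb10 (chr8:105935735-105938444), which replaces Psmb7, had 42.2, 39.9 and 31.2 CPM in IP, against 17.4, 93.8, 28.8 and 24.1 CPM in unbound. Its groups overlap through unbound 2, and its log2 fold change was -0.12 ± 0.50 (adjusted p = 0.872). Leaving out unbound 2 turned it to 0.69 (adjusted p = 0.0423), so that 1 library sets its direction.

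Within libraries, the ratio of Psmb8 to Psmb5 counts was 1.54, 1.03 and 0.866 in IP, against 0.0183, 0.0120, 0.0147 and 0.0191 in unbound. Psmb9 to Psmb6 was 1.18, 0.998 and 0.910 in IP, against 0.0141, 0.0260, 0.0179 and 0.0232 in unbound. Neither ratio overlapped between groups. Per kilobase of exon the mean ratio was 0.305 in IP and 0.00426 in unbound for Psmb8 to Psmb5, and 0.527 in IP and 0.0104 in unbound for Psmb9 to Psmb6. These lengths join the exons of all annotated transcripts, 3381 bases for Psmb8, 899 for Psmb5, 3660 for Psmb9 and 1872 for Psmb6. In unbound both subunits were below their counterparts in counts and per length. In IP the order per length depends on these lengths. Psmb10 to Psmb7 was 0.311, 0.318 and 0.292 in IP, against 0.183, 0.445, 0.268 and 0.206 in unbound, and overlapped. The constitutive subunits Psmb5, Psmb6 and Psmb7 did not pass the threshold, at -0.30 ± 0.32, -0.09 ± 0.37 and -0.11 ± 0.29 on the log2 scale (adjusted p = 0.499, 0.875 and 0.786). Like Psmb10 they were highest in unbound 2, at 99.0, 177 and 211 CPM, while the other unbound libraries had 41.6 to 45.2 CPM of Psmb5, 57.6 to 74.1 of Psmb6 and 94.9 to 117 of Psmb7.

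**Figure D4:**
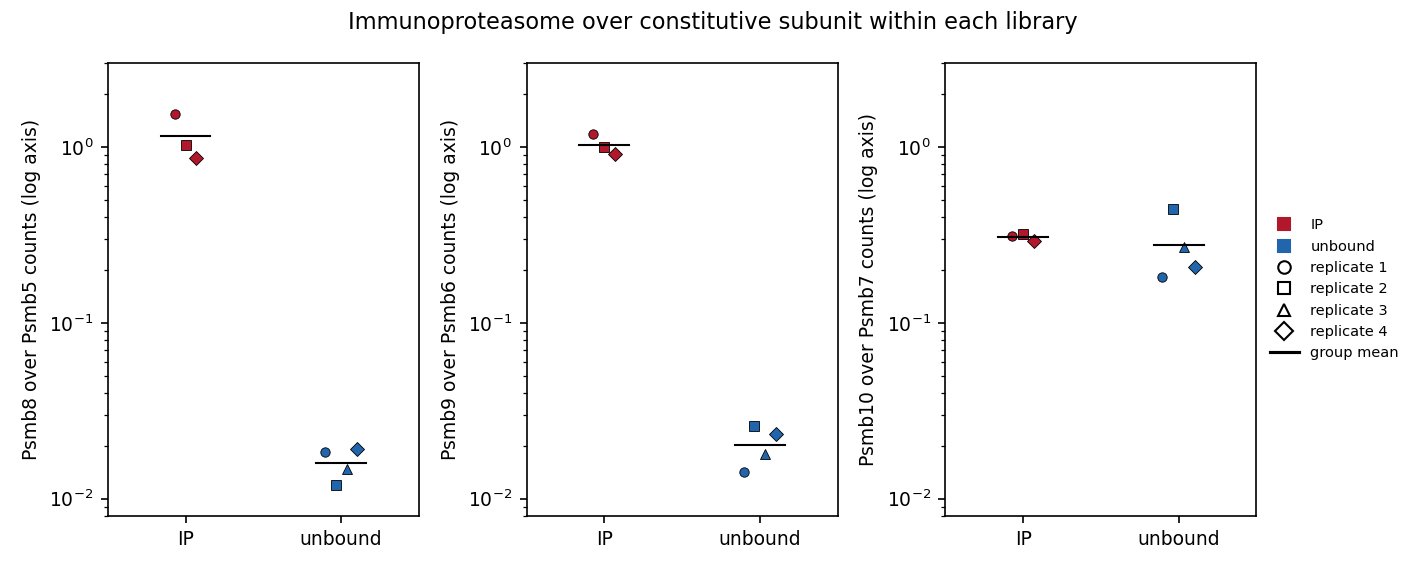
Ratio of each immunoproteasome subunit to its constitutive counterpart in counts within each library, on a log axis, IP left and unbound right, with a symbol for each replicate and a line at the group mean. Psmb8 to Psmb5 averaged 1.15 in IP and 0.0160 in unbound, Psmb9 to Psmb6 1.03 in IP and 0.0203 in unbound, and Psmb10 to Psmb7 0.307 in IP and 0.275 in unbound.

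For the peptide transporter, Tap1 had 3.78, 4.34 and 5.84 CPM in IP, against 1.003, 1.32, 0.645 and 0.318 CPM in unbound. Its groups did not overlap, and it rose by 2.49 ± 0.56 (adjusted p = 0.00523). Tap2 had 3.29, 1.79 and 2.12 CPM in IP, against 0.150, 1.46, 0.740 and 0.777 CPM in unbound. It lay higher in every IP library and did not pass the threshold (log2 fold change 1.62 ± 0.72, adjusted p = 0.0968). It passed without unbound 2 (adjusted p = 0.0432) and in limma voom (0.0323). Tapbp, tapasin, had 36.7, 36.3 and 36.1 CPM in IP, against 14.5, 11.7, 14.6 and 9.495 CPM in unbound, without overlap (1.53 ± 0.24, adjusted p = 0.000582). Tap1 and Psmb9 share 212 exon bases on opposite strands, and 1053 exon bases of Tapbp overlap Gm19412 or Zbtb22. Exon bases on the opposite strand of another gene also numbered 360 in H2-DMa, 496 in H2-Q4, 498 in Psmb8 and 698 in Tap2. No source used here names the strand setting of the counting, so reads of such pairs cannot be told apart.

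Of the transactivators, Nlrc5 rose and Ciita did not pass the test. Nlrc5, the regulator of class I genes, had 3.21, 4.29 and 6.55 CPM in IP, against 0, 1.01, 0.437 and 0.194 CPM in unbound. Its groups did not overlap, and it rose by 3.51 ± 1.04 (adjusted p = 0.0213). The call was lost without IP 2, IP 4 or unbound 4 (adjusted p = 0.0544, 0.0638 and 0.0574), and the value was 4.502 without unbound 2. Ciita, the regulator of class II genes, had 1.36, 0.680 and 1.14 CPM in IP, against 2.78, 1.99, 1.33 and 1.99 CPM in unbound. These values overlap (log2 fold change -0.93 ± 0.56, adjusted p = 0.211), and 329 exon bases of Ciita lie opposite Dexi. H2-Ke6, a hydroxysteroid dehydrogenase gene also named Hsd17b8, had 13.2, 10.4 and 6.19 CPM in IP, against 7.07, 20.0, 9.13 and 6.25 CPM in unbound, which overlap (-0.09 ± 0.44, adjusted p = 0.886). Of its 1643 exon bases 1419 (86.4%) are shared on the same strand with Gm20427, and reads that match both genes are absent from the counts.

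Libraries of both groups carry 1 of 2 index sequences. Within index ACAGTG (IP 1, IP 2, unbound 1 and unbound 2) 4 class I, 2 class II and 4 processing rows were higher, and within GTGAAA (IP 4, unbound 3 and unbound 4) 5, 6 and 7, the lone IP library being assumed to vary like the unbound ones. With all 7 libraries these counts were 6, 5 and 7. Cd74 and H2-Ab1 lost their calls within ACAGTG (adjusted p = 0.0649 and 0.092) with log2 fold changes of 4.49 and 4.74. H2-DMa, H2-DMb1, H2-M3, H2-M5, H2-Q7, Nlrc5 and Tap1 lost theirs there too (adjusted p from 0.0669 to 0.284). The log2 fold changes within ACAGTG were 2.92 for H2-DMb1, 1.47 for H2-M3, -5.48 for H2-M5, 4.91 for H2-Q7, 0.96 for H2-DMa, 2.896 for Nlrc5 and 1.80 for Tap1. Those of H2-DMa, Nlrc5 and Tap1 were over 0.5 smaller than with all libraries, and the others were not. H2-M3 was not called within GTGAAA either (adjusted p = 0.0618). Sequencing lane and group cannot be told apart.

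IP 4 was the highest IP library for most tested class II genes. Relative to the mean of IP 1 and IP 2, its log2 level was 1.43 higher for H2-Aa, 1.31 for Cd74, 0.50 for H2-Ab1 and 0.50 for H2-Eb1. For H2-Ab1 (15.9, 23.9 and 28.2 CPM in IP 1, 2 and 4) and H2-DMa (12.2, 18.5 and 20.1 CPM) IP 2 lay nearer to IP 4 than to IP 1. For H2-DMb1 IP 4 lay between IP 1 and IP 2. Of the 8 tested class II genes 7 were above that mean, with a median of 0.50, against 5 of 12 class I genes with a median of -0.09. For H2-T23 and H2-M3 IP 4 stood below that mean, at -1.01 and -0.75 on the log2 scale. Several marker sums moved in the same library: the monocyte and neutrophil markers summed to 5.36, 5.45 and 21.1 CPM in IP 1, 2 and 4, against 0.401 to 1.24 CPM in unbound, with 4 of the 7 measured higher in IP. The 8 dendritic cell markers summed to 22.6, 17.7 and 27.6 CPM, against 9.39 to 12.1 CPM in unbound, with 2 higher and 1 lower. Their higher sum in IP 4 came through Cd209a, at 5.24, 3.24 and 16.5 CPM in IP. Zbtb46 had 13.7, 10.1 and 7.27 CPM in IP, and Flt3 2.03, 2.09 and 2.65 CPM. The 6 B cell markers summed to 32.5, 29.3 and 47.7 CPM, against 4.14 to 9.45 CPM in unbound, with 1 higher and 1 lower, and most of the IP sum was Blnk. Ms4a1 among them had at most 5 counts in any library. The 8 T and NK cell markers summed to 4.79, 6.74 and 10.6 CPM, against 0.363 to 1.29 CPM in unbound, mostly Cd4, with Nkg7 and Trac at 0 in every library. Neuronal markers were also highest in IP 4, at 3086, 3263 and 6733 CPM in IP 1, 2 and 4, against 11767 to 18523 CPM in unbound. Oligodendrocyte markers summed to 824, 933 and 1549 CPM, against 4978 to 6700.4 CPM in unbound, and pericyte and smooth muscle markers to 4408, 4643 and 3247 CPM, against 25.99 to 43.7 CPM in unbound. The part of these cells in the class II levels of IP 4 was not tested.

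**Figure D5:**
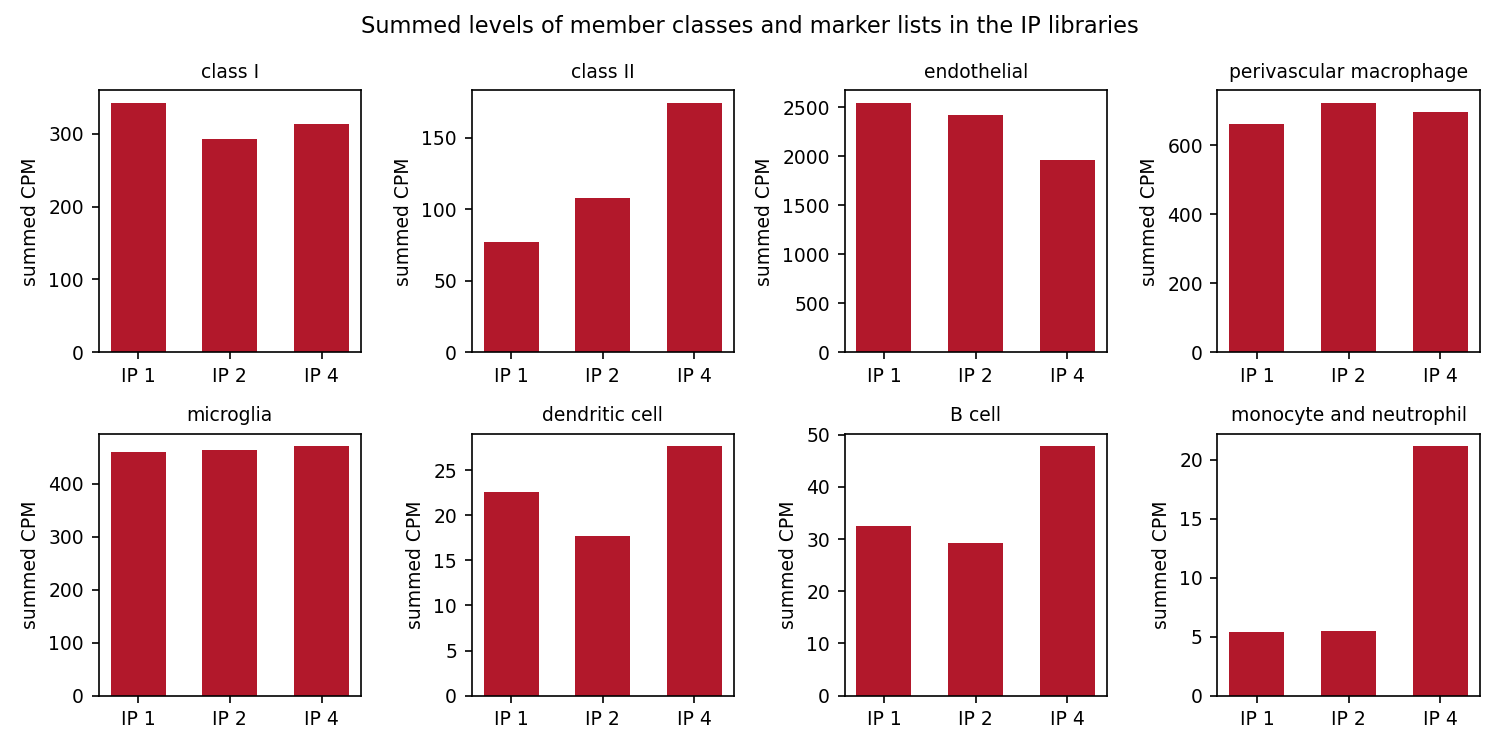
Summed CPM of class I, class II and 6 marker lists in the 3 IP libraries, each panel on its own linear axis from 0. Class II was 77.2, 108 and 174 CPM in IP 1, 2 and 4 and the monocyte and neutrophil list 5.36, 5.45 and 21.1 CPM, while the perivascular macrophage and microglia lists varied little. In IP 4 most of the monocyte and neutrophil sum was S100a9 and S100a8.

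Other genes of the pathway were read from lists, whose counts stand beside 20.5% higher in IP and 18.9% lower among all tested genes. Of 8 genes for peptide loading and trimming in the endoplasmic reticulum 3 were higher, 1 was lower and 4 were not called, with a median log2 fold change of -0.13. The higher count was 1 without IP 1 or unbound 4, and 2 without IP 2 or IP 4. Tapbpl, a tapasin-related editor of class I peptides named after its values were seen, was higher by 0.97 ± 0.30 on the log2 scale (adjusted p = 0.027) and lost its call without IP 1, IP 2 or unbound 4 (adjusted p = 0.105, 0.0898 and 0.0702). Erap1, which trims peptides, averaged 12.3 ± 2.24 CPM in IP and 2.62 ± 1.29 CPM in unbound (SD, n = 3 and 4, as for later means), with 2.24 ± 0.45 as its log2 fold change (adjusted p = 0.00313). Sec61a1, the translocon channel, averaged 40.2 CPM in IP and 23.7 CPM in unbound (0.76 ± 0.22, adjusted p = 0.0195), a call lost without IP 1, IP 4 or unbound 4 (adjusted p = 0.059, 0.0764 and 0.0542). Canx, the chaperone calnexin and the most abundant of the list, was lower, at 162 ± 33.8 CPM in IP and 288 ± 35.5 in unbound (-0.83 ± 0.24, adjusted p = 0.0182), a call lost without IP 1 or IP 2 (adjusted p = 0.0955 and 0.104).

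Of 7 genes of the constitutive proteasome and its activators 2 were higher, 1 was lower and 4 were not called, near the 20.5% higher and 18.9% lower of all tested genes. The higher count was 1 without IP 1, IP 2 or unbound 4. Psme1 and Psme2, the subunits of the interferon-inducible activator PA28, were higher by 1.37 ± 0.35 and 1.05 ± 0.31 on the log2 scale (adjusted p = 0.0103 and 0.0196). Psme1 averaged 220 ± 15.7 CPM in IP and 85.1 ± 46.8 in unbound, and Psme2 77.8 ± 9.89 in IP and 37.6 ± 15.2 in unbound. Psme2 lost its call without IP 1, IP 2 or unbound 4 (adjusted p = 0.0757, 0.0522 and 0.0547). Psme3, the activator subunit of the nucleus and the most abundant of the list, was lower, at 153 ± 21.5 CPM in IP and 248 ± 21.4 in unbound (-0.70 ± 0.22, adjusted p = 0.0265). It lost its call without IP 1, IP 2 or unbound 3 (adjusted p = 0.13, 0.123 and 0.0734).

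Of 13 regulators of MHC transcription 8 were higher and 5 were not called. Irf9 and Irf8, which act downstream of interferon, had log2 fold changes of 3.16 ± 0.32 and 3.97 ± 0.43 (adjusted p = 3.44e-05 and 5.27e-05). Irf9 had 59.8 ± 16.7 CPM in IP and 6.68 ± 2.1 in unbound, and Irf8 had 32.6 ± 2.27 CPM in IP and 2.08 ± 1.08 in unbound. Nfya, a subunit of the CCAAT-binding factor NF-Y, rose by 1.99 ± 0.22 (adjusted p = 6.13e-05), at 66.1 ± 12.5 CPM in IP and 16.7 ± 1.49 in unbound. Creb1, the most abundant of the list, rose by 0.62 ± 0.21 (adjusted p = 0.0373), a call lost without any single IP library or unbound 3 (adjusted p from 0.0571 to 0.112). The 5 not called, named after their values were seen, were the other NF-Y subunits Nfyb and Nfyc (0.16 ± 0.25 and 0.44 ± 0.32) and all 3 subunits of the X box factor RFX, Rfx5, Rfxap and Rfxank, whose log2 fold changes were -0.18 ± 0.24, -0.32 ± 0.24 and -0.14 ± 0.30.

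Of 7 interferon receptor and kinase genes 6 were higher and 1, Ifngr2, was not called (-0.43 ± 0.27, adjusted p = 0.24). Ifnar2 and Ifnar1, the chains of the type I interferon receptor, rose by 2.75 ± 0.20 and 1.55 ± 0.21 on the log2 scale (adjusted p = 4.18e-06 and 0.000236). Ifnar2 averaged 109 ± 4.46 CPM in IP and 16.1 ± 1.73 in unbound. The kinases Tyk2 and Jak1, with Jak1 the most abundant of the list, rose by 1.75 ± 0.25 and 0.998 ± 0.25 (adjusted p = 0.000383 and 0.00881).

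Of 9 genes for endosomal processing towards class II 5 were higher, 1 was lower and 3 were not called. The higher count was 3 without IP 1, IP 2, unbound 1, unbound 3 or unbound 4, since Ctsl, cathepsin L (0.58 ± 0.21, adjusted p = 0.0463), and the tetraspanin Cd63 (1.10 ± 0.36, adjusted p = 0.0331), named after their values were seen, lost their calls there (adjusted p from 0.0749 to 0.168). Ctss, cathepsin S, which cleaves the invariant chain, averaged 128 ± 12.4 CPM in IP and 6.46 ± 1.53 in unbound and rose by 4.31 ± 0.26 (adjusted p = 1.51e-06). Ifi30, a thiol reductase that opens disulfide bonds of antigens, averaged 24.1 ± 5.8 CPM in IP and 0.879 ± 0.857 in unbound (4.79 ± 0.92, adjusted p = 0.00234), or 5.47 without unbound 2. Ctsd, cathepsin D, averaged 393 ± 19.6 CPM in IP and 161 ± 31.1 in unbound (1.29 ± 0.23, adjusted p = 0.00156). Ctsb, cathepsin B and over all libraries the most abundant of the list, did not pass the threshold, at 381 ± 54.5 CPM in IP and 426 ± 36.1 in unbound (-0.16 ± 0.22, adjusted p = 0.601). March1, a ubiquitin ligase that removes class II from the cell surface, was lower, at 19.1 ± 0.434 CPM in IP and 30.9 ± 6.27 in unbound (-0.69 ± 0.24, adjusted p = 0.04). Its call was lost when any library but unbound 2 was left out (adjusted p from 0.0625 to 0.126).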

How the data were processed

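The authors deposited raw read counts by gene symbol. Per the submitters' processing notes, STAR 2.0.0e aligned reads to build mm10 of the mouse genome and HTSeq counted them; annotation, strand setting and filters are not stated there. Rows naming no gene entered neither library sizes nor tests. Outside any gene lay 16.6% ± 2.78 of all reads in IP and 12.2% ± 0.708 in unbound (SD, n = 3 and 4), reads matching more than 1 gene 1.55% ± 0.107 and 9.95% ± 1.89, and reads aligned to more than 1 place 36.5% ± 3.28 and 24.5% ± 7.28. The last 2 kinds are absent from gene counts, which may lower duplicated MHC genes, and not equally in both groups.

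Counts were filtered with filterByExpr, scaled by TMM and tested (2-sided) with the robust quasi-likelihood test of edgeR 4.0.16 in R 4.3.3, IP over unbound, over 17654 genes with Benjamini-Hochberg adjustment at 0.05. Each adjusted p in the text is from this fit, unless another method, scaling, design or set of libraries is named with it. CPM, log2 fold changes and standard errors were computed here, ratios came from raw counts, and intervals and floors cover counting error only. The test was checked on simulated counts. No libraries of a group agreed within sampling noise (chi-square per degree of freedom 77.7 to 1206). Positions and exon lengths came from GENCODE M21 (GRCm38, named mm10), which held 49 of 52 members, and promoters from RefSeq (GRCm38.p6). An exon length is the union of the exons of all transcripts of a gene, which can exceed the length of the main transcript. Members and lists were chosen with earlier results of these data known. All members were named; of each pathway list, the 3 smallest p, the most abundant gene and genes called against the majority. Alternatives were scaling by RLE or by library size alone, every gene with a count or those with at least 5 CPM in 3 libraries, voom in limma 3.58.1, DESeq2 1.42.0, the index sequence as covariate or fitted within, a replicate block, leaving out the 10 most abundant genes and each library, and, chosen after seeing the data, both IP 4 and unbound 2.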

Additional observations from a re-analysis of the deposited data

Results flagged for a closer look

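Each of the 32 tested members was examined for 1 unbound library far from the other 3, by the gap to the nearest library over the range of the 4, set against Dixon's 95% limit, which chance passes in about 1 in 20 groups; IP has too few libraries for this. H2-T23 had a ratio of 0.935, from 8.88 CPM in unbound 2 and 3.23 to 3.60 CPM in the others. Psmb10 had 0.85, from 93.8 CPM in unbound 2 and 17.4 to 28.8 CPM in the others; Psmb5, Psmb6, Psmb7 and Psme1 were highest in that library too, Psme1 at 154 CPM and 52.8 to 69.6 CPM in the others. H2-Q2 had 0.842, from 3.33 CPM in unbound 2 and 0.526 to 0.971 CPM in the others. H2-K2 had 0.835, from 6.98 CPM in unbound 1 and 1.01 to 1.99 CPM in the others.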

How the results depend on the processing

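Over 19 alternatives the 32 tested members gave 588 values, of which 549 kept direction and side of the threshold, 23 lost a call, 14 gained one and 2 reversed; 17 members kept theirs in all. The reversals were Psmb10, 0.69 without unbound 2 (range -0.38 to 0.69 when 1 library was left out) and 0.81 without IP 4 and unbound 2. Of all genes 3840 were called within index ACAGTG and 4547 to 7682 when 1 library was left out, against 6950. The class II count of 5 was 2 and the processing count of 7 was 4 within ACAGTG. The count of lower class I genes, 1 (H2-M5), was 0 with no low-count filter, the 5 CPM filter, limma voom, index as covariate, within ACAGTG and the replicate block, 2 with DESeq2 (H2-M5 and H2-Q2), and 0 to 1 without 1 library; the 1 was H2-Q2 without unbound 1, H2-M5 without unbound 4, H2-Bl within GTGAAA and H2-T24 without IP 4 and unbound 2. Leaving out 1 library gave 5 to 7 higher class I genes, 5 to 6 class II and 6 to 9 processing. Class II was 6 with RLE, library size only, DESeq2, voom and the index covariate, each time with H2-Ob. Without IP 4 and unbound 2 they were 7, 6 and 8. Per kilobase, ratios in IP and unbound were 0.305 and 0.00426 for Psmb8 to Psmb5, 0.527 and 0.0104 for Psmb9 to Psmb6 and 0.616 and 0.553 for Psmb10 to Psmb7; the change follows from exon length. Library size alone moved the median of all genes by 0.10. The labels do not say that replicate numbers pair libraries. Deviations of same-numbered libraries correlated at -0.07, 0.06 and 0.26 for numbers 1, 2 and 4. IP 2 and IP 4 correlated best with their own number and IP 1 with unbound 2 (0.34), so pairing was not established. The replicate block called 5772 genes, 5 class I, 5 class II and 7 processing higher; H2-M3 (adjusted p = 0.0567) and H2-M5 (0.227) were not called there. Depth limits rows of under about 3 counts, and the cause of other changes was not tested.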

Other observations

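Class I-like genes outside the H2 names were also measured. Of 9 genes 4 were higher in IP, 1 was lower, 1 was not called and 3 were not tested, beside 20.5% higher and 18.9% lower of all tested genes. Fcgrt, the heavy chain of the neonatal Fc receptor and the most abundant of the list, averaged 54.3 ± 6.67 CPM in IP and 2.74 ± 1.64 in unbound (SD, n = 3 and 4), and had a log2 difference of 4.31 ± 0.41 (edgeR adjusted p = 2.26e-05). Hfe, which regulates iron uptake, averaged 24.4 ± 0.965 CPM in IP and 2.18 ± 0.96 in unbound (3.48 ± 0.37, adjusted p = 5.12e-05). Mr1, which presents microbial metabolites to innate-like T cells, averaged 24.7 ± 3.18 CPM in IP and 3.21 ± 1.9 in unbound (2.95 ± 0.51, adjusted p = 0.00127). Like the classical heavy chains, Fcgrt, Hfe and Mr1 products pair with B2m. Cd1d1, which presents lipids, was lower at 0.0551 ± 0.0369 CPM in IP and 0.68 ± 0.334 in unbound (-3.55 ± 1.01, adjusted p = 0.0175), a call lost without IP 2 or IP 4 (adjusted p = 0.0782 and 0.0588).

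Of 8 genes for costimulation and T cell ligands 5 were higher, 1 was lower, 1 was not called and 1 was not tested, beside the same shares of all tested genes, 20.5% and 18.9%. Cd86, a ligand of CD28, averaged 7.63 ± 0.68 CPM in IP and 0.613 ± 0.219 in unbound (3.63 ± 0.43, adjusted p = 0.000106). Icam1, an adhesion ligand of leukocyte integrins, averaged 6.04 ± 1.2 CPM in IP and 0.371 ± 0.258 in unbound (4.02 ± 0.61, adjusted p = 0.000526). Cd83, which stabilises class II at the surface of dendritic cells and is the most abundant of the list, was lower at 13.1 ± 1.91 CPM in IP and 46.4 ± 15.7 in unbound (-1.83 ± 0.31, adjusted p = 0.000975).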
